A study of Mus musculus with 8 samples.

Results

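The genes described here are 10 regulators of mitochondrial gene transcription, taken as the rows of the deposited tables whose Ensembl gene carries one of 10 mouse symbols: the coactivators Ppargc1a, Ppargc1b, Pprc1 and Perm1, the estrogen-related receptors Esrra, Esrrb and Esrrg, the transcription factors Nrf1 and Gabpa, and the corepressor Nrip1. They are 10 of 41388 genes in the tables, and all 10 had enough counts to be tested. RNA came from the brown adipose tissue of 8 C57BL/6J mice that were held at room temperature and ate regular chow. In 4 mice (ANKO) floxed Nampt was deleted in adipocytes by Cre under the adiponectin promoter. The other 4 mice (WT) carried the flox/flox alleles and were labelled wild type. The labels give no age, and no control with the Cre transgene alone was analysed here. Nrf1 is nuclear respiratory factor 1 (ENSMUSG00000058440), not Nfe2l1, which has also been called Nrf1.

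Brown adipocytes are filled with mitochondria, whose proteins are encoded almost entirely by nuclear genes. PGC-1 proteins do not bind DNA themselves. They dock onto nuclear receptors and other factors, among them the estrogen-related receptors (ERRs), and recruit the enzymes that open chromatin, so that respiratory chain, Krebs cycle and fatty acid oxidation genes are transcribed together. In brown fat, cold and adrenergic signals raise PGC-1α through cAMP, and NRIP1 (RIP140) acts as a brake on the same genes.

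RefSeq promoter windows on GRCm38.p6 were available for 9 of the 10 genes, each running from 250 bases before to 50 bases after an annotated start. The 5 shown are those in which 1 of 5 searched motifs was found. Capitals mark the match, and each sequence runs 5′ to 3′ along the strand of its gene.
Ppargc1a, chr5:51567676-51567975, minus strand: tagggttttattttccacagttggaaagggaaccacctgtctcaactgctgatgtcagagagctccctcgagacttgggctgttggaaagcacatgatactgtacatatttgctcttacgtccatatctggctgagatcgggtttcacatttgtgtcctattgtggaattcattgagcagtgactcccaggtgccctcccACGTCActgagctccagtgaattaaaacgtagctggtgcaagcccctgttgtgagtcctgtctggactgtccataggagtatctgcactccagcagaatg
Perm1, chr4:156215677-156215976, plus strand: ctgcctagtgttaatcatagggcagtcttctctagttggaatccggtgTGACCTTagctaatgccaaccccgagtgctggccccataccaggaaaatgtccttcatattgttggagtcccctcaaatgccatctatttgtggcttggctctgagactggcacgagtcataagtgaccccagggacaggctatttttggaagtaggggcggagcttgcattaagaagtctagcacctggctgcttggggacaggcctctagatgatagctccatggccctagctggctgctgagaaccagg
Esrra, chr19:6921759-6922058, minus strand: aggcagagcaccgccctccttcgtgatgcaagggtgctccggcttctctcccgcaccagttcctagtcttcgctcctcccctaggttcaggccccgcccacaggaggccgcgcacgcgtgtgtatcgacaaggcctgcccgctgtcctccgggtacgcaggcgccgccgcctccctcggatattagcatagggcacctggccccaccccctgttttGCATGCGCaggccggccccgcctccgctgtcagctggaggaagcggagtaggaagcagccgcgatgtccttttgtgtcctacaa
Esrrg (the first of 4 windows), chr1:187608756-187609055, plus strand: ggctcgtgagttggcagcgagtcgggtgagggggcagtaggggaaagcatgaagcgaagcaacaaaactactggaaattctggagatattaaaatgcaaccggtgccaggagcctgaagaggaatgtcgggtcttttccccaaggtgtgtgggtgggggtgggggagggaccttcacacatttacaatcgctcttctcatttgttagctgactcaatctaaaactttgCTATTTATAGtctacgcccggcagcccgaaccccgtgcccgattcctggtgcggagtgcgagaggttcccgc
Gabpa, chr16:84834874-84835173, plus strand: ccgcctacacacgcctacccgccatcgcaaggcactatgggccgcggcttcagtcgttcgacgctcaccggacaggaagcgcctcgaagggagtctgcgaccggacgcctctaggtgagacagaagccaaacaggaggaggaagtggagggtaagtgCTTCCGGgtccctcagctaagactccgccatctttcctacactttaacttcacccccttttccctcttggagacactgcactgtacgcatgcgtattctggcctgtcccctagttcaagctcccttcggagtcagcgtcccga

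The capitals in Ppargc1a are the reverse complement of the cAMP response element core TGACGT, from 50 to 45 bases before the start. This core lies in a window of 8.37% of all 27025 genes with a RefSeq window. The capitals in Perm1 are the reverse complement of the ERR extended half-site AAGGTCA, 202 to 196 bases before the start, which 5.38% of genes hold. The capitals in Esrra are GCATGCGC, the core of the NRF1 site, 34 to 27 bases before the start, which 3.05% of genes hold. The capitals in Esrrg, CTATTTATAG, match the 10-letter MEF2 consensus, which leaves 1 letter free, 22 to 13 bases before the start, which 0.451% of genes hold. The capitals in Gabpa are the reverse complement of CCGGAAG, the ETS site that GABP itself binds, 93 to 87 bases before the start, which 9.93% of genes hold. Both strands were searched, no match overlapped another, and the windows of Pprc1, Esrrb, Nrf1 and Nrip1 held none of these letters. A match is a description of the sequence and not evidence of binding.

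The libraries held 5738067 to 26426476 gene counts in ANKO and 21771276 to 49697156 in WT. The lowest count of any of the 10 genes in a library was 33, for Esrrb in ANKO3. Nampt itself had 67.4 to 77.6 CPM (counts per 1000000 counts, library sizes scaled by TMM) in ANKO against 484 to 571 CPM in WT, a log2 fold change of -2.81. The brown adipocyte markers summed to 5501 to 10198 CPM in ANKO and 15837 to 23638 CPM in WT, and 9 of the 10 were called lower. They were thus well above 0 in all libraries. In each ANKO library the 17 skeletal muscle markers described next summed to more than these 10, which goes against brown fat alone. In no WT library was that so, but WT1 and WT2 held muscle markers too. Sums over unlike numbers of genes do not measure purity. Fabp4, a lipid carrier of all fat, and Ucp1, the uncoupler of brown fat, had the highest levels of that list, and Ucp1 had 317 to 1673 CPM in ANKO and 3369 to 8829 CPM in WT. Skeletal muscle markers summed to 11628 to 16809.7 CPM in ANKO, against 1102 CPM in WT1, 3145 CPM in WT2, 129.6 CPM in WT3 and 37.2 CPM in WT4. Every marker, such as the myosin Myh4 and the actin Acta1, was higher in all 4 ANKO libraries than in any WT library. None was at 0 in all libraries, and Tnnc2 was at 0 in WT3. Of the 17, 13 were called higher, a count that ran from 3 (without WT1) to 17 (without WT2) when 1 library was left out. Macrophage markers such as Lyz2 and Mpeg1 (7 of 7 called higher) summed to 803 to 1251 CPM in ANKO and 85.8 to 109 CPM in WT. Fibroblast markers such as Col3a1 and Col1a1 (5 of 5 called higher) summed to 3156 to 5999.8 CPM in ANKO and 701 to 1054 CPM in WT. Endothelial markers, of which Kdr and Pecam1 had the highest levels, summed to 584 to 742 CPM in ANKO and 822 to 953 CPM in WT. Of these 5 markers 3 were called lower, among them Kdr (log2 fold change -0.97), while Pecam1 was not called (0.08). What macrophage, fibroblast and endothelial RNA contributed to the results below was not tested, and in bulk tissue fewer adipocytes and less RNA per adipocyte cannot be told apart.

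Transcripts of PGC-1α, PGC-1β, ERRα, ERRγ and GABPα were lower in ANKO than in WT brown fat, while the levels of NRF1, PRC and the corepressor NRIP1 were not called different. Perm1 was called lower too, but with overlapping libraries. Of the 10 genes, 6 were called lower and 0 higher (edgeR quasi-likelihood test, adjusted p under 0.05 over 16705 genes). Of all genes tested, 58.2% were called, 27.6% lower and 30.6% higher (4615 and 5111 genes). Without scaling factors 17.6% were lower and 35.3% higher (2940 and 5897 genes), a setting that moved the median of all genes by 0.18 on the log2 scale. Without WT3 and WT4, 5 of the 10 genes were called lower, against 22.3% of all genes, and without WT1 and WT2 it was 7, against 28.6%. With the muscle marker level in the model, which moved with genotype, only Ppargc1b and Esrrg stayed called, 2 of 10, against 9.38% of all genes called lower and 12.9% higher. The libraries of ANKO and WT were separate in 6 of the 10 genes, against 55% of all genes, with 5 below (26.4% of all genes) and 1 above (28.7%). The median log2 fold change of the 10 was -0.78, and that of all genes tested was -0.01.

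Ppargc1a encodes PGC-1α, the coactivator induced by cold (ENSMUSG00000029167, chromosome 5, 51454249 to 51567725, minus strand, GRCm38). It had 76.1, 154, 121 and 64.7 CPM in ANKO1 to ANKO4, against 195, 386, 588 and 599.8 CPM in WT1 to WT4. Every ANKO library lay below every WT library, but the WT libraries themselves spanned 3.08-fold, with WT1 lowest and WT3 and WT4 high. The means were 104 ± 41.4 CPM in ANKO and 442 ± 192 CPM in WT (SD, n = 4 each), a log2 fold change of -2.09 ± 0.40 (standard error, edgeR adjusted p = 0.00191). Its coefficient of variation in WT was 43.4%, against a median of 14.3% over 14302 protein-coding genes. The size of the fall depended on which WT libraries it was set against: -2.54 without WT1 and WT2, the WT libraries with more muscle RNA, and -1.50 without WT3 and WT4, called both times. With the mean level of the muscle markers as a covariate it was -1.13 ± 0.60 (standard error) and no longer called (edgeR adjusted p = 0.217). Ucp1 split the WT libraries likewise, at 3369 and 4170 CPM in WT1 and WT2 against 8829 and 7430 CPM in WT3 and WT4. Dio2 did so too, at 282 and 487 CPM against 1538 and 1426 CPM. Cidea, another brown adipocyte marker, did not (1999 and 2214 CPM against 1930 and 2001 CPM). What set the WT libraries apart was not tested.

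Ppargc1b encodes PGC-1β, which drives mitochondrial genes too but is not known for induction by cold (ENSMUSG00000033871, chromosome 18, 61298136 to 61400431, minus strand). It had 45.4, 55.2, 67.2 and 42.0 CPM in ANKO1 to ANKO4, against 188, 163, 159 and 160.4 CPM in WT1 to WT4. The groups stood far apart and the WT libraries were close to each other, with a coefficient of variation of 8.24%. On the log2 scale ANKO minus WT was -1.68 ± 0.15 (standard error, edgeR adjusted p = 8.94e-06). It stayed called in all 22 alternatives, between -1.82 and -1.50, including the fit with the muscle covariate at -1.81 ± 0.26 (standard error).

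Pprc1 encodes PRC, the third member of the PGC-1 family, known as a coactivator tied to cell growth (ENSMUSG00000055491, chromosome 19, 46044886 to 46072915, plus strand). It had 17.5, 21.1, 29.6 and 31.2 CPM in ANKO1 to ANKO4, against 19.7, 24.8, 19.4 and 21.6 CPM in WT1 to WT4. The groups overlapped, with ANKO3 and ANKO4 above and ANKO1 below all WT libraries. The log2 fold change of 0.20 did not pass the test (edgeR adjusted p = 0.353), with a 95% interval of -0.15 to 0.56. Its exons share 177 bases with Ldb1 on the opposite strand, and the strand setting of the counting is not given in the sources used here.

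Perm1 encodes a regulator induced by PGC-1 and ERR that is best known from skeletal and heart muscle (ENSMUSG00000078486, chromosome 4, 156215868 to 156221307, plus strand). It had 49.7, 53.7, 44.6 and 40.8 CPM in ANKO1 to ANKO4, against 58.3, 49.5, 144 and 129.9 CPM in WT1 to WT4. WT2 lay inside the ANKO range and WT1 just above it, while WT3 and WT4 stood far above all other libraries. Its log2 fold change was -1.01 ± 0.34 (standard error, edgeR adjusted p = 0.0322). Without WT3 and WT4 it was -0.20 and not called, and without WT1 and WT2 it was -1.56 and called. With the muscle covariate it was 0.65 and not called. It was not called without scaling factors (-0.82), without a low-count filter (-1.07) or with limma-voom (-0.81). Leaving out any 1 of ANKO1, ANKO2, ANKO3, ANKO4, WT3 or WT4 also ended the call, with values from -1.09 to -0.76.

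**Figure D1:**
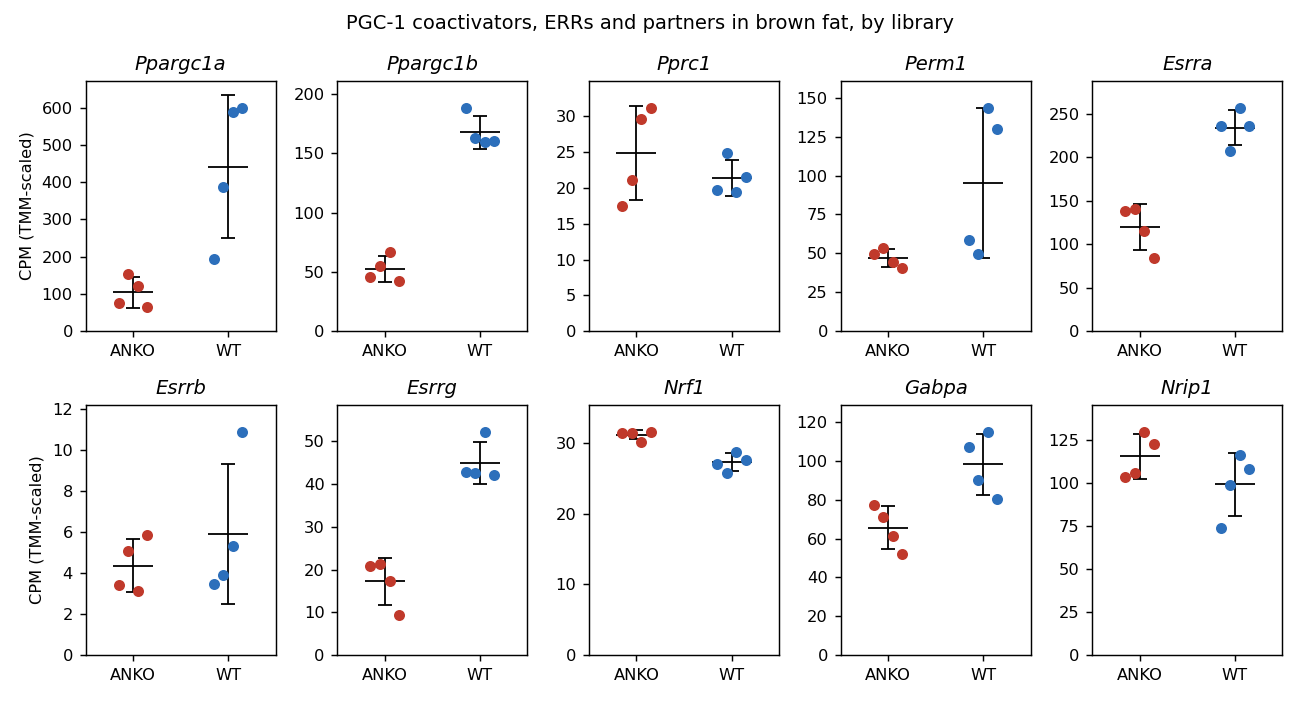
Level of each of the 10 genes in CPM (TMM-scaled, linear axis from 0, its own scale per gene), 1 point per library with ANKO on the left and WT on the right; black bars are the mean and 1 SD (n = 4 each). For Ppargc1a, Ppargc1b, Esrra, Esrrg and Gabpa all 4 ANKO points lie below the lowest WT point, for Nrf1 all 4 lie slightly above the highest, and Perm1 splits the WT libraries into 2 low and 2 high ones.

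**Figure D2:**
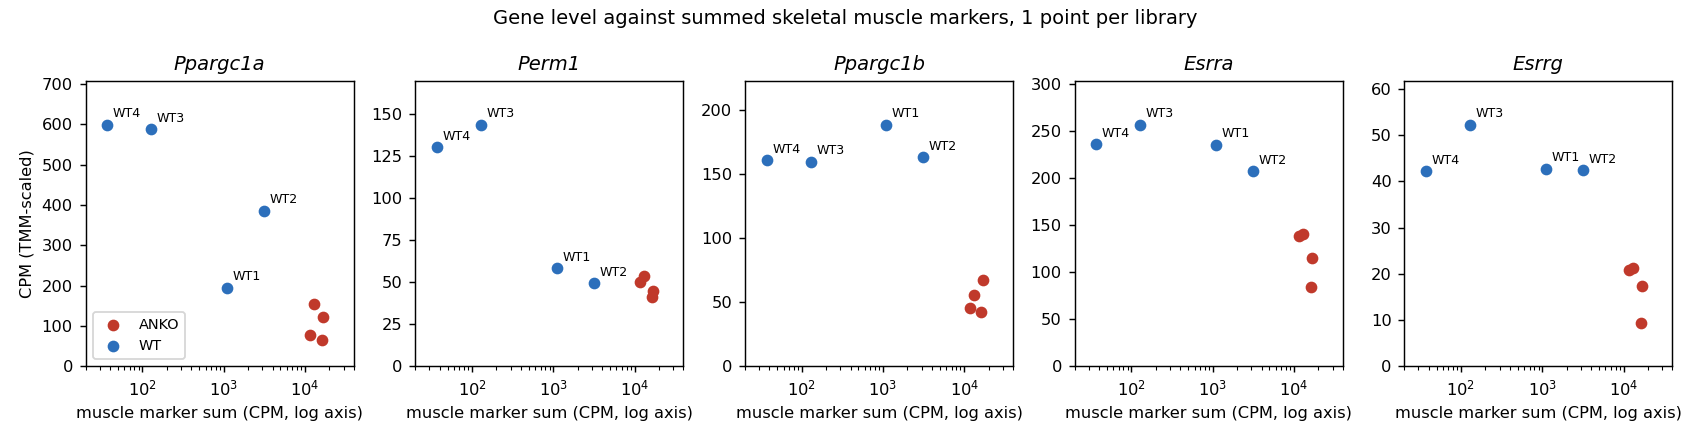
Level of 5 genes in CPM (linear axis) against the summed level of 17 skeletal muscle markers in CPM (log axis), 1 point per library, ANKO in red and WT in blue. Ppargc1a and Perm1 are lower in WT1 and WT2, which hold 1102 and 3145 CPM of muscle markers, than in WT3 and WT4, while Ppargc1b, Esrra and Esrrg differ little among the WT libraries.

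Esrra encodes ERRα, the main DNA-binding partner through which PGC-1α reaches oxidative genes (ENSMUSG00000024955, chromosome 19, 6910977 to 6921813, minus strand). It had 138, 141, 115 and 83.8 CPM in ANKO1 to ANKO4, against 236, 208, 257 and 237 CPM in WT1 to WT4. No libraries overlapped, and ANKO4 was the lowest of all. Of its 2539 exon bases 73 are shared with Trmt112 on the opposite strand and 91 with the microRNA gene Mir6990 on the same strand. Mir6990 had 0 counts in every library. On the log2 scale ANKO minus WT was -0.97 ± 0.16 (standard error, edgeR adjusted p = 0.000562). With the muscle covariate it was -0.76 ± 0.29 (standard error) and not called (edgeR adjusted p = 0.0891), and it stayed called in the other 21 alternatives, between -1.07 and -0.80.

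Esrrg encodes ERRγ, a constitutively active receptor enriched in oxidative tissues (ENSMUSG00000026610, chromosome 1, 187608791 to 188214885, plus strand). It had 20.9, 21.3, 17.3 and 9.32 CPM in ANKO1 to ANKO4, against 42.8, 42.5, 52.3 and 42.3 CPM in WT1 to WT4. The groups did not overlap. Its log2 fold change was -1.37 ± 0.21 (standard error, edgeR adjusted p = 0.000391), and it was called in all 22 alternatives, with the muscle covariate at -1.23 ± 0.37 (standard error, edgeR adjusted p = 0.0427).

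Esrrb encodes ERRβ, better known from pluripotent cells (ENSMUSG00000021255, chromosome 12, 86361117 to 86521628, plus strand). It was the lowest of the 10 genes, at 3.41, 5.07, 3.12 and 5.83 CPM in ANKO1 to ANKO4, against 3.47, 3.92, 5.31 and 10.9 CPM in WT1 to WT4. All WT libraries but WT4 lay within the ANKO range. With a log2 fold change of -0.49 ± 0.38 (standard error) it did not pass the test (edgeR adjusted p = 0.293). It was -0.01 without WT4, and -0.98 and called without WT1 and WT2 (edgeR adjusted p = 0.0330). It was 0.18 without WT3 and WT4 and 0.95 with the muscle covariate, not called in either.

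Nrf1 encodes a factor that binds GC-rich sites in promoters of respiratory chain and mitochondrial DNA maintenance genes (chromosome 6, 30047988 to 30153458, plus strand). It had 31.4, 31.5, 30.2 and 31.6 CPM in ANKO1 to ANKO4, against 26.98, 25.7, 28.7 and 27.6 CPM in WT1 to WT4. All ANKO libraries lay above all WT libraries, by little. The log2 fold change was 0.19 ± 0.08 (standard error), with a 95% interval of 0.04 to 0.35 that left out 0. Its unadjusted edgeR p was 0.0341, but after adjustment Nrf1 did not pass the test (edgeR adjusted p = 0.0571). It passed under 4 of the 22 alternatives: without scaling factors (0.38, with 35.3% of all genes called higher), with upper-quartile scaling (0.28, 33.1%), with a filter of 1 CPM in 4 libraries (0.22, 31.2%) and after thinning all libraries to the lowest total (0.32, 29.2%).

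Gabpa encodes the DNA-binding subunit of GABP, also called NRF-2, an ETS factor of many mitochondrial promoters (ENSMUSG00000008976, chromosome 16, 84834925 to 84863779, plus strand). It had 77.4, 71.3, 61.5 and 52.0 CPM in ANKO1 to ANKO4, against 107, 90.3, 115 and 80.5 CPM in WT1 to WT4. The groups did not overlap, though ANKO1 came close to WT4. On the log2 scale ANKO minus WT was -0.58 ± 0.15 (standard error, edgeR adjusted p = 0.00698). With the muscle covariate it was -0.61 ± 0.28 (standard error) and not called (edgeR adjusted p = 0.154). Gabpa shares 397 of its 5687 exon bases with Atp5j on the opposite strand, so reads of both genes may not be told apart. Gabpb1 and Gabpb2, which encode the partner subunits, were not called, with log2 fold changes of -0.16 and 0.02.

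Nrip1 encodes the corepressor that restrains brown fat and oxidative genes (ENSMUSG00000048490, chromosome 16, 76287400 to 76373827, minus strand). It had 103, 106, 129.8 and 123 CPM in ANKO1 to ANKO4, against 73.7, 98.8, 116 and 108 CPM in WT1 to WT4. The ranges overlapped. With a log2 fold change of 0.22 ± 0.14 (standard error) it did not pass the test (edgeR adjusted p = 0.217), and its 95% interval ran from -0.06 to 0.50. It was called higher under 2 alternatives, without scaling factors (0.41) and after thinning (0.36).

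**Figure D3:**
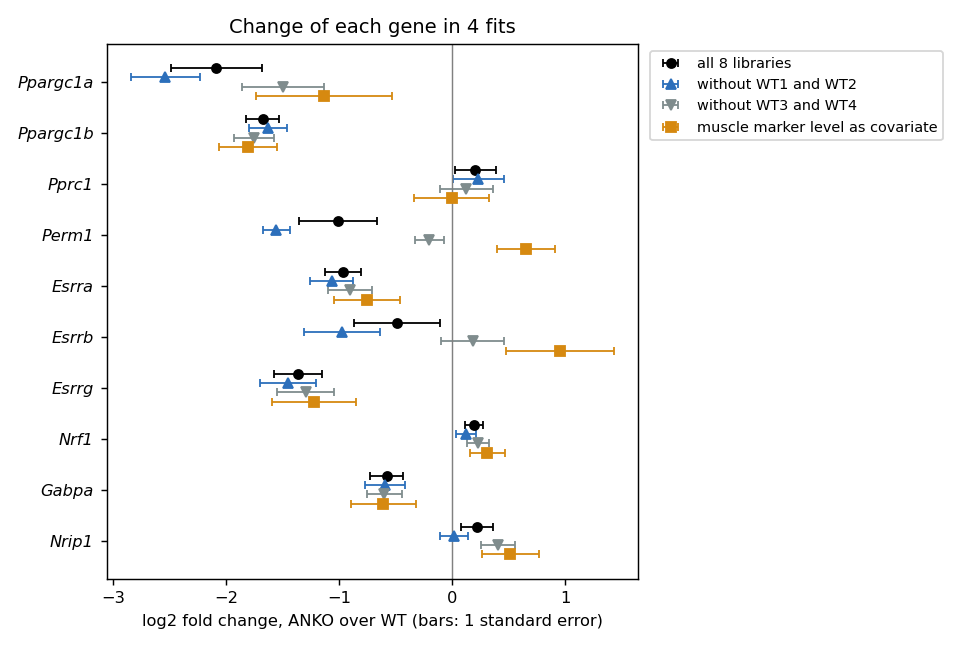
Log2 fold change of ANKO over WT (x axis) for each gene in 4 fits, with bars of 1 standard error: all 8 libraries, without WT1 and WT2, without WT3 and WT4, and with the muscle covariate. Ppargc1b runs from -1.81 to -1.63, Esrrg from -1.46 to -1.23, Esrra from -1.07 to -0.76 and Gabpa from -0.61 to -0.58 (Esrra and Gabpa not called with the covariate), Ppargc1a runs from -2.54 to -1.13, and Perm1 from -1.56 to 0.65.

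Per length, as CPM per kb of the summed exons (RPKM), Esrra had the highest mean of the 10 in both groups, at 47.1 ± 10.4 RPKM in ANKO and 92.3 ± 7.97 RPKM in WT (SD, n = 4 each). In WT it was followed by Ppargc1a (66.6 RPKM), Ppargc1b (42.0), Perm1 (24.4), Gabpa (17.3), Nrip1 (8.65), Esrrg (7.24), Pprc1 (2.85), Nrf1 (2.65) and Esrrb (0.976). Of these neighbours in WT, the library ranges did not overlap between Ppargc1b and Perm1, Gabpa and Nrip1, Esrrg and Pprc1, and Nrf1 and Esrrb. In ANKO the levels of Ppargc1a (15.7 RPKM), Ppargc1b (13.1), Perm1 (12.1), Gabpa (11.5) and Nrip1 (10.1) lay close together, and the range of each overlapped that of the next. Esrrg, seventh in WT, came ninth in ANKO at 2.77 RPKM, below Pprc1 (3.31) and Nrf1 (3.03), with overlapping ranges.

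To see whether pairs of these genes changed unequally, 10 ratios of counts per length were formed within each library, so that library scaling plays no part. Each was compared between the groups by an exact two-sided permutation test, with p adjusted over the 10. The smallest p that 4 against 4 libraries allow is 0.0286, which became 0.0476 after adjustment for the 6 ratios that reached it. In 2 of the 6 the denominator is the muscle marker sum, which separates the groups by itself. Adjusted over the other 8 ratios, chosen after seeing the data, the same p became 0.0571, so the calls below hold only with those 2 in the family. The ratio of coactivator to corepressor, Ppargc1a to Nrip1, was 1.27, 2.52, 1.61 and 0.911 in ANKO1 to ANKO4, against 4.56, 6.75, 8.75 and 9.56 in WT1 to WT4. It was lower in all ANKO libraries than in all WT libraries, by 4.84-fold on average (log2 difference -2.28, adjusted p = 0.0476, exact permutation test). Ppargc1b to Nrip1 was 1.26, 1.499, 1.49 and 0.984 in ANKO1 to ANKO4, against 7.34, 4.73, 3.95 and 4.25 in WT1 to WT4, with no overlap and a 3.81-fold lower mean (adjusted p = 0.0476, exact permutation test). Per length, ANKO4 was the one library in which both coactivators lay below Nrip1, and in all WT libraries both lay above it.

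For the 2 coactivators no unequal change was shown. Their ratio was 1.006, 1.68, 1.08 and 0.926 in ANKO1 to ANKO4, against 0.621, 1.43, 2.22 and 2.25 in WT1 to WT4, with overlap (log2 difference -0.35, adjusted p = 0.514, exact permutation test). WT1 was the one WT library with more Ppargc1b than Ppargc1a per length. The ratio of Ppargc1a to Esrra was 0.211, 0.418, 0.401 and 0.295 in ANKO1 to ANKO4, against 0.316, 0.711, 0.874 and 0.969 in WT1 to WT4. Only WT1 fell into the ANKO range, and the log2 difference of -1.05 did not pass (adjusted p = 0.107, exact permutation test).

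Within the receptors, the ratio of Esrra to Esrrg was 16.2, 16.1, 16.2 and 21.8 in ANKO1 to ANKO4, against 13.5, 11.9, 12.0 and 13.7 in WT1 to WT4. The groups did not overlap, with a log2 difference of 0.45 (adjusted p = 0.0476, exact permutation test). Nrf1 to Gabpa was 0.225, 0.244, 0.272 and 0.337 in ANKO1 to ANKO4, against 0.139, 0.157, 0.138 and 0.189 in WT1 to WT4, 1.72-fold higher in ANKO (adjusted p = 0.0476, exact permutation test). Adjusted over the 8 ratios without muscle markers, neither ratio passed (adjusted p = 0.0571 for both, exact permutation test).

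The receptor and the coactivator were also set against Adipoq, the adiponectin gene made by adipocytes. Esrra to Adipoq was 0.118, 0.1299, 0.0915 and 0.0897 in ANKO1 to ANKO4, against 0.1299, 0.101, 0.1196 and 0.109 in WT1 to WT4. These overlapped, with a log2 difference of -0.11 (adjusted p = 0.476, exact permutation test). Ppargc1a to Adipoq was 0.0248, 0.0543, 0.0367 and 0.0265 in ANKO1 to ANKO4, against 0.0410, 0.0719, 0.105 and 0.105 in WT1 to WT4. WT1 lay within the ANKO range, and the log2 difference of -1.16 did not pass (adjusted p = 0.0816, exact permutation test). Adipoq itself was called lower in ANKO, so these ratios compare 2 falling transcripts.

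Perm1 and Esrrg are also transcribed in skeletal muscle, so both were set against the summed muscle markers. Perm1 per muscle marker sum was 0.00266, 0.00259, 0.00159 and 0.00154 in ANKO1 to ANKO4, against 0.0349, 0.00997, 0.630 and 2.01 in WT1 to WT4. Esrrg per muscle marker sum was 0.000702, 0.000648, 0.000389 and 0.000223 in ANKO1 to ANKO4, against 0.0161, 0.00539, 0.144 and 0.412 in WT1 to WT4. The log2 differences were -6.16 and -6.74. The muscle marker sum alone separates the groups, so both are a description and no test of Perm1 or Esrrg. In the gene test 13 of the 17 markers were called higher, while Perm1 and Esrrg were called lower.

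**Figure D4:**
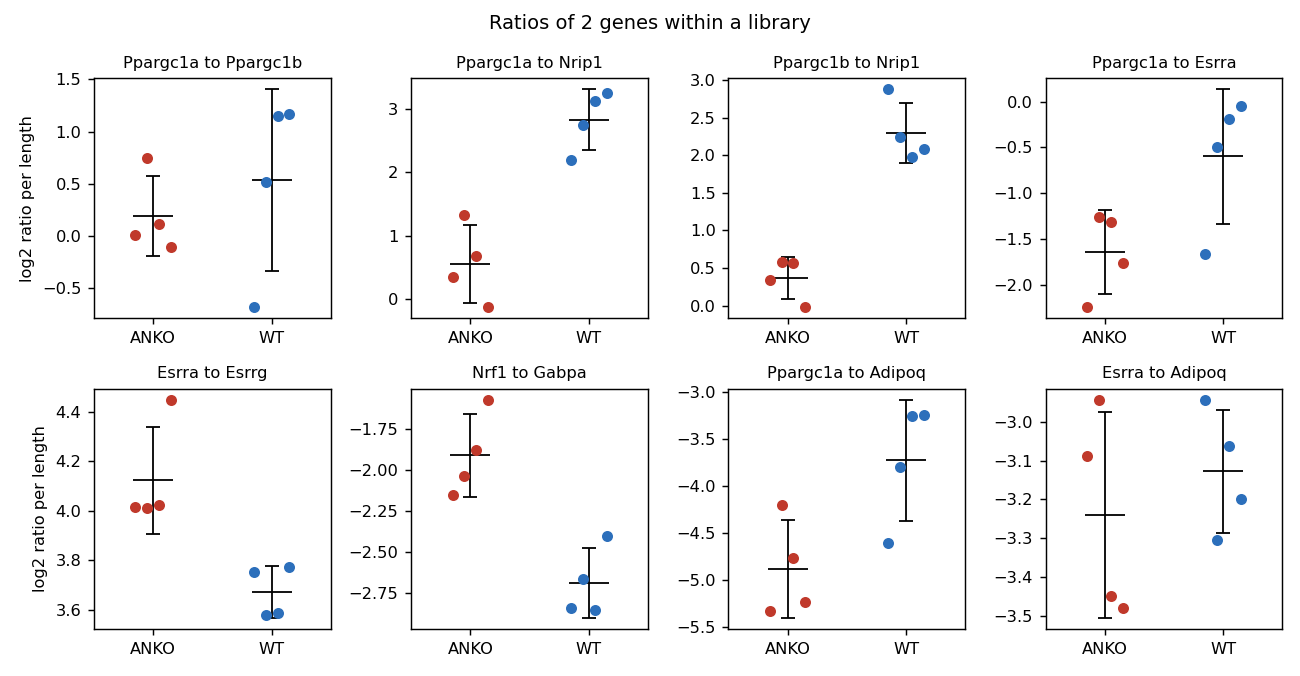
Log2 of 8 within-library ratios of counts per length, 1 point per library, ANKO on the left and WT on the right, with the mean and 1 SD (n = 4 each); each panel has its own axis, which does not start at 0. Both coactivators relative to Nrip1 are lower in all ANKO libraries, Esrra to Esrrg and Nrf1 to Gabpa are higher in all of them, and the other 4 ratios overlap between the groups.

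The genes whose profile over the 8 libraries lay closest to that of a member were sought among 12319 protein-coding genes whose mean was 2 CPM or more. The distance is the root mean square difference of log2 CPM after centring each gene, and libraries share their genotype, depth and muscle content. For Ppargc1b the closest were Isoc2a, Nrp2 and Timm21, at 0.126, 0.145 and 0.157. For Esrra they were Churc1, Prdx3 (a mitochondrial peroxiredoxin) and Eral1 (a chaperone of mitochondrial ribosomal RNA), at 0.0486, 0.0532 and 0.0542. For Esrrg they were Uqcrfs1 (the Rieske protein of complex III), Aifm1 and Dlst (a subunit of the oxoglutarate dehydrogenase complex), at 0.0733, 0.0857 and 0.0860. For Ppargc1a nothing lay as near: Atl2, Fam126b and St3gal5 followed at 0.315, 0.322 and 0.330. For Perm1 they were Ing1, G3bp2 and Hspa4l, at 0.162, 0.175 and 0.204. The median distance over all candidates was 1.16 for Ppargc1a, 0.853 for Ppargc1b, 0.674 for Perm1, 0.548 for Esrra and 0.787 for Esrrg.

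Genes that ERR and PGC-1 proteins are known to drive were nearly all lower in ANKO. Of 25 such genes 24 were called lower and 1 higher, against 27.6% lower of all genes. Their log2 fold changes had a median of -1.28, against -0.01 over all genes. The 10 brown adipocyte markers, with 9 called lower, had a median of -1.02. Whether these targets fell more than other adipocyte genes was not tested. Acadm, the medium-chain acyl-CoA dehydrogenase and a classical ERRα target, had 725, 729, 591 and 336 CPM in ANKO1 to ANKO4, against 1925, 2023, 2384 and 2257 CPM in WT1 to WT4. No libraries overlapped, and it was 3.61-fold lower (edgeR adjusted p = 0.000119). Cpt1b, the carnitine palmitoyltransferase of muscle and brown fat, averaged 15.3 ± 4.21 CPM in ANKO and 53.4 ± 7.74 CPM in WT (SD, n = 4 each), 3.45-fold lower (edgeR adjusted p = 3.78e-05). Vegfa, which PGC-1α induces for vessel growth, was 2.68-fold lower (edgeR adjusted p = 0.000108). The 1 higher gene was Slc25a4, the ADP/ATP carrier of heart and muscle, at 547 to 655 CPM in ANKO and 450.3 to 517 CPM in WT (log2 fold change 0.38, edgeR adjusted p = 0.0195). It lost its call without WT1 and WT2 (0.40, edgeR adjusted p = 0.0503), with the muscle covariate (0.26), and when any 1 of ANKO2, ANKO3, WT1, WT3 or WT4 was left out (0.34 to 0.36). Ucp1, also among the brown adipocyte markers, stands in this list. With that covariate 5 of the 25 were called lower and 0 higher, against 9.38% lower and 12.9% higher of all genes in that fit.

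Targets of NRF1 and GABP moved in the same direction. Gabpa itself was called lower (log2 fold change -0.58), while Nrf1 was not called. Of 23 genes 20 were called lower and 1 higher, against 27.6% and 30.6% of all genes. Their median was -1.004 on the log2 scale, beside -1.02 for the brown adipocyte markers. Twnk, the helicase of mitochondrial DNA, had 15.4 to 18.9 CPM in ANKO and 33.1 to 50.6 CPM in WT, 2.42-fold lower (edgeR adjusted p = 6.17e-05). Polrmt, the mitochondrial RNA polymerase, had 27.2 to 36.0 CPM in ANKO and 53.8 to 71.2 CPM in WT, 2.01-fold lower (edgeR adjusted p = 6.52e-05). Cox17, a copper chaperone of complex IV, was 2.44-fold lower (edgeR adjusted p = 7.26e-05). The 1 higher gene was Tomm34, a cytosolic import factor, whose log2 fold change of 0.29 (edgeR adjusted p = 0.0406) shrank to 0.15 without WT3 and WT4 and to 0.02 with the muscle covariate. Leaving out any 1 library other than WT1 also ended its call (0.21 to 0.31). Polg2 and Tomm20 were not called, at -0.06 and -0.04. With the muscle covariate 8 of the 23 were called lower, against 9.38% of all genes. Of the 19 genes of this list with a promoter window, 12 (63.2%) held the ETS letters CCGGAAG and 4 (21.1%) the NRF1 core GCATGCGC, against 9.93% and 3.05% of all genes. The list was drawn up from known targets, so these shares describe it and test nothing. Of the 21 ERR and PGC-1 targets with a window, 2 (9.52%) held AAGGTCA, against 5.38% of all genes, and 2 (9.52%) CCGGAAG. The NRF1 core lay in 5 (23.8%) of them, so its share is not particular to the NRF1 and GABP list, and the cAMP response element core TGACGT in 8 (38.1%), against 8.37% of all genes.

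**Figure D5:**
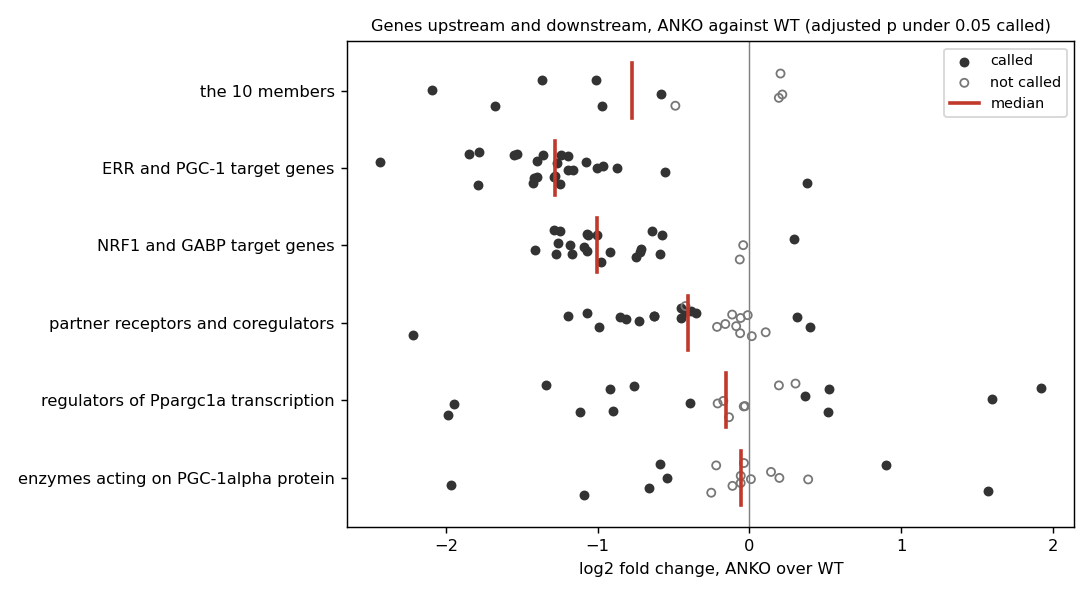
Log2 fold change of ANKO over WT for the 10 members and for the tested genes of 5 lists, 1 point per gene; filled points passed an adjusted p of 0.05 and red bars are medians. Both target lists lie almost wholly below 0 (medians -1.28 and -1.004), while the 3 lists of partners, upstream regulators and modifying enzymes have medians of -0.40, -0.15 and -0.06 with members on both sides.

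Receptors and coregulators that work with PGC-1 proteins were called lower in 14 and higher in 2 of 26 genes tested, against 27.6% lower and 30.6% higher of all genes (median -0.40, log2). Ppara, the receptor that with PGC-1α turns on fatty acid oxidation, had 87.6, 149, 174 and 91.4 CPM in ANKO1 to ANKO4, against 604, 553, 549 and 626 CPM in WT1 to WT4. It was 4.65-fold lower with no overlap (edgeR adjusted p = 2.37e-05). Prdm16, which holds brown adipocyte identity, was 2.29-fold lower (edgeR adjusted p = 4.77e-05), and the thyroid hormone receptor Thrb 1.99-fold lower (edgeR adjusted p = 0.000114). Rxra, the common partner of nuclear receptors, was called higher, at a log2 fold change of 0.31 (edgeR adjusted p = 0.0361). It was at 0.13 and not called without WT1 and WT2, and it also lost its call without any 1 library other than WT3 (0.23 to 0.33). It stayed called without WT3 and WT4 (0.48) and with the muscle covariate (0.70).

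Of 20 regulators of Ppargc1a transcription 8 were called lower and 5 higher (median -0.15, log2), near the 27.6% and 30.6% of all genes, so the counts are not a result about this list. The lower genes with the smallest p were Atf2, Mef2a and Prkaca. Atf2, which binds the cAMP response element of Ppargc1a, had 71.2 to 81.7 CPM in ANKO and 154 to 225 CPM in WT, 2.53-fold lower (edgeR adjusted p = 2.14e-05). Prkaca, the catalytic subunit of protein kinase A, was 1.86-fold lower (edgeR adjusted p = 0.00027). The MEF2 factors parted: Mef2a was at 127 to 129 CPM in ANKO and 188 to 247 CPM in WT (log2 fold change -0.76), and Mef2c at 110.4 to 129 CPM in ANKO and 19.2 to 45.5 CPM in WT (1.92). Mef2d was not called (-0.13). Mef2c is also a skeletal muscle and macrophage factor, and in WT it was higher in WT1 and WT2 (43.0 and 45.5 CPM) than in WT3 and WT4 (20.8 and 19.2 CPM). Tfeb, a lysosomal regulator, and the kinase Camk4 were called higher, at 0.52 and 1.60, with Camk4 at only 1.19 to 2.48 CPM in WT. With the muscle covariate Mef2a (-0.47) and Camk4 (1.35) were not called. Atf2 (-0.87), Prkaca (-0.97), Mef2c (0.74) and Tfeb (0.71) stayed called in that fit.

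Of 17 genes for enzymes that modify PGC-1α protein 5 were called lower and 2 higher (median -0.06, log2), against 27.6% and 30.6% of all genes, so the lower count too is near the background. As 6 of the 17 encode subunits of the same kinase, these are not counts of separate enzymes. The subunits of AMP-activated protein kinase, which phosphorylates PGC-1α, changed in both directions, with 3 of 6 called lower, 2 higher and 1 not called. The γ2 subunit Prkag2 had 44.0 to 52.8 CPM in ANKO and 175 to 220.2 CPM in WT, 3.90-fold lower (edgeR adjusted p = 6.7e-07). The β2 subunit Prkab2 had 42.7 to 55.5 CPM in ANKO and 11.6 to 21.02 CPM in WT, 2.98-fold higher (edgeR adjusted p = 4.98e-05). The α2 subunit Prkaa2, the catalytic form of muscle, was 1.87-fold higher, and the α1 subunit Prkaa1 was lower, at a log2 fold change of -0.59. The γ1 subunit Prkag1 was lower as well (-0.54), and the β1 subunit Prkab1 was not called (0.39). With the muscle covariate Prkaa2 was at 0.41 and not called. Sirt1, the NAD+-dependent deacetylase of PGC-1α, had 26.9 to 29.1 CPM in ANKO and 41.8 to 46.8 CPM in WT, and the opposing acetyltransferase Kat2a had a log2 fold change of -0.04 and was not called. Akt2, a kinase known from liver to restrain PGC-1α, was 2.13-fold lower (edgeR adjusted p = 0.000153).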

How the data were processed

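RNA-seq libraries of rRNA-depleted total RNA from 8 mice were aligned with STAR 2.0.4b and counted with featureCounts 1.45 on GRCm38 according to the labels (tools and build per the submitters' processing notes), with annotation release and strand setting not given in the sources used here. The authors deposited, per the file headers, a read count, a CPM and an RPKM for each of 41388 genes. The deposited CPM is the count per 1000000 of the table's total, and the deposited RPKM is that CPM per kb of gene length. Only the counts were used, and levels printed here were recomputed with TMM-scaled library sizes. Symbols came from GENCODE M21 by Ensembl ID (40254 matched). The 355 rRNA rows were left out. They held 0.801% to 1.13% of counts in ANKO and 2.83% to 3.53% in WT, so this share parted the groups.

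Genes were filtered with filterByExpr and tested with the edgeR 4.0.16 quasi-likelihood fit in R 4.3.3 with robust dispersion, ANKO against WT, adjusted by Benjamini-Hochberg over 16705 genes. Standard errors were derived from the F statistic. The 95% intervals are 1.96 of them to each side, a normal approximation that is somewhat narrow with 4 libraries a group. Ratios used 0.5 added to each count. Leaving out each library or pairs of WT libraries, other scalings and filters, DESeq2 1.42.0, limma-voom 3.58.1, a muscle covariate, a replicate block and thinning were tried, and leaving out WT1 and WT2, and adjusting the ratios without the 2 to muscle markers, were added after seeing the data. No 2 libraries agreed within sampling noise (lowest chi-square per degree of freedom 7.16). The series design counts mice, so replicates are animals. With 3 counts the floor was 0.0626 to 0.527 CPM, counting error only.

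The members and gene lists were chosen with earlier results of these data known. Named genes are all members, Nampt, up to 3 called genes per direction and list with the smallest p, the 2 highest genes of each marker list, and the 3 closest profiles of 5 members. Adipoq was named as the partner of a ratio. Dio2, Cidea, Gabpb1, Gabpb2, Polg2, Tomm20, Mef2d, Prkaa1, Prkag1, Prkab1, Tnnc2 and Kat2a were chosen after their values were seen. One gene that the rule names is not reported here, Prmt1 is not analysed here, and Nr0b2 had too few counts to be tested. Promoters and their build are RefSeq's. Figures were drawn with matplotlib 3.10.9.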

Additional observations from a re-analysis of the deposited data

Results flagged for a closer look

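The values below came from 1 library standing apart from the other 3 of its group (Dixon's test at the 95% level, in CPM unless stated). Chance gives such a value in about 1 of 20 groups, and 90 groups were tested. Ppargc1b was high in WT1, at 188 CPM against 159 to 163 CPM in the other WT libraries. Esrrg was high in WT3, at 52.3 CPM against 42.3 to 42.8 CPM. Nrf1 was low in ANKO3, at 30.2 CPM against 31.4 to 31.6 CPM, a gap of little size. Nampt was high in WT3, at 571 CPM against 484 to 495 CPM, and Cox17 was high in WT3 too, at 79.97 CPM against 49.6 to 54.1 CPM. In ANKO4, the shallowest library, Cpt1b was low at 9.03 CPM against 16.6 to 17.9 CPM, Prkag2 was low at 44.0 CPM against 51.5 to 52.8 CPM, and the log2 ratio of Esrra to Esrrg was high at 4.45 against 4.01 to 4.02. Twnk was low in ANKO1, at 15.4 CPM against 18.4 to 18.9 CPM. Tomm34 was low in ANKO2, at 27.3 CPM against 29.2 to 29.5 CPM.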

How the results depend on the processing

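Of the 10 genes, Ppargc1b and Esrrg were called lower in every fit run, and Ppargc1a, Esrra and Gabpa in every fit but the one with the muscle covariate. The covariate moved with genotype (r = 0.853 over 8 libraries, a description) and widened the median standard error to 0.30, against 0.18 without it. With it, 2 of the 10 genes were called lower, and 1567 genes were lower and 2162 higher in all, against 4615 and 5111. ERR and PGC-1 targets then had 5 lower and 0 higher, NRF1 and GABP targets 8 and 0, Ppargc1a regulators 3 and 2, and partners 6 and 1. Of the modifying enzymes 1 was higher, while Prkag2 (-2.23), Akt2 (-1.33) and Sirt1 (-0.67) stayed called lower. Perm1 turned to 0.65. The cause of these changes was not tested.

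Of the 10 genes, 1 was called higher with upper-quartile scaling and with the filter of 1 CPM in 4 libraries, and 2 without scaling factors and after thinning. Without scaling factors 2940 genes were lower and 5897 higher, and 4 of 17 modifying enzymes were higher, against 35.3% of all genes. The 1 higher gene of the ERR and PGC-1 targets and the 1 of the NRF1 and GABP targets fell to 0 without a filter, with the replicate block, without WT3 and WT4 and at an adjusted p under 0.01, and the first also to 0 without WT1 and WT2. Higher partners numbered 1 without a filter and without WT3 and WT4, and 0 without WT1 and WT2 and at 0.01. Higher Ppargc1a regulators numbered 3 without WT3 and WT4.

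The replicate numbers did not pair the libraries: deviations of same-numbered libraries correlated at 0.114, -0.0130, 0.0747 and -0.0530, and of the ANKO libraries only ANKO1 correlated best with its own number. With the replicate block, 4961 genes were higher and 4278 lower, and Perm1 was at -0.86 (adjusted p = 0.0958). As pairs, ratios cannot go under p = 0.125 in an exact permutation test, so the block ended the calls of Ppargc1a to Nrip1 (-2.28), Ppargc1b to Nrip1 (-1.93), Esrra to Esrrg (0.45), Nrf1 to Gabpa (0.78), Perm1 to muscle markers (-6.16) and Esrrg to muscle markers (-6.74). Adjusted over the 8 ratios without muscle markers, the first 4 were not called either (p = 0.0571, exact permutation test).

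With 1 library left out, 4098 to 4912 genes were lower and 4780 to 5555 higher, and 5 to 6 of the 10 genes lower (against 23.9% to 28.2% of all genes) and 0 higher. ERR and PGC-1 targets had 23 to 24 lower and 0 to 1 higher, NRF1 and GABP targets 20 lower and 0 to 1 higher, Ppargc1a regulators 7 to 8 lower and 4 to 5 higher, modifying enzymes 5 to 6 lower and 2 higher, and partners 13 to 15 lower and 0 to 2 higher. The ratios cannot pass at 4 against 3 libraries (smallest exact permutation p = 0.0571). They ran from -2.53 to -2.04 for Ppargc1a to Nrip1, -2.03 to -1.74 for Ppargc1b to Nrip1, 0.34 to 0.49 for Esrra to Esrrg, 0.67 to 0.88 for Nrf1 to Gabpa, -7.45 to -4.89 for Perm1 and -7.79 to -5.70 for Esrrg to muscle markers, -0.75 to -0.13 for Ppargc1a to Ppargc1b, -1.40 to -0.85 for Ppargc1a to Esrra, -1.45 to -0.999 for Ppargc1a to Adipoq and -0.21 to -0.03 for Esrra to Adipoq. At 33 to 479 counts, Esrrb has the lowest counts of the 10.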
